A study of Mus musculus with 15 samples.

Results

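Six6, Rax, Lhx2, Otx2 and Atoh7 are transcription factors of the optic cup and the retina, and their levels were followed in the embryonic mouse lens, which forms beside these tissues. They were taken by gene symbol and make up 5 of the 14615 genes summed from the deposited table, and all 5 were among the 14532 genes tested. RNA-seq libraries of wild-type C57BL/6NTac lenses were made at 4 stages from E10.5 (E, embryonic day) through E12.5 and E14.5 to E16.5, with 3 libraries a stage. Each lens library held pooled lenses, whose number was 50 for E10.5, 29 for E12.5, 18 for E14.5 and 17 for E16.5. The reference was 3 libraries of whole embryos of the same strain and genotype, labelled as E10.5 to E12.5 (whole body), and the labels do not say how the days were combined. By the labels, libraries that share a group are biological replicates. The study used whole body to ask which genes are enriched in the lens at each stage, and the series of stages to ask how that enrichment moves with age.

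As background, the optic vesicle grows out of the forebrain, meets the surface ectoderm that will become the lens, and folds into an optic cup whose inner layer becomes the neural retina and whose outer layer becomes the retinal pigment epithelium. Rax, a paired-type homeobox factor, is needed for the optic vesicle to form, Six6, a homeobox factor of the sine oculis family, acts in progenitors of the retina and the pituitary, and Lhx2, a LIM-homeobox factor, is needed for the vesicle to become a cup. Otx2, a bicoid-type homeobox factor, acts in the forebrain and midbrain, in the pigment epithelium and later in photoreceptors. Atoh7, a basic helix-loop-helix factor, gives retinal progenitors the competence to become ganglion cells.

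Values are FPKM (fragments scaled to transcript length and library size), added up over all transcripts of each gene, and the sequencing depth behind them is unknown. Differences were tested with limma on log2(FPKM + 1) and are given as a log2 difference ± SE, which understates the change of low genes. A call means an adjusted p (Benjamini-Hochberg, over all genes tested) under 0.05. The libraries were lens by their markers. Foxe3, which marks the lens epithelium, stood at 269 to 570 FPKM in the 12 lens libraries and at 0.27 to 0.48 in whole body, and 9 of 11 tested lens-defining genes were already higher than whole body at E10.5, with Hsf4 and Sox1 not called. Markers of other tissues were present unevenly. The 10 measured genes of periocular mesenchyme and neural crest summed to 374 and 392 FPKM in 2 E10.5 libraries and to 2213 in replicate 3, where Col1a1, a collagen of connective tissue, alone stood at 1273 FPKM against 10.8 and 13.3. In E12.5 replicate 2, Sox10, a neural crest factor, stood at 16.4 FPKM against 0.39 and 2.82 in its replicates.

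The sequences shown are those before the most upstream start sites of Lhx2 and Otx2 among the reference transcripts matched in the table. They were chosen because a transcript from each site was above 0 in whole body but listed at 0 in some or all lens libraries. Lhx2 lies on chromosome 2 from 38339281 to 38369733 on the plus strand, and Otx2 on chromosome 14 from 48657677 to 48673819 on the minus strand (mm10, GENCODE). The windows are the 250 bases before the start, from RefSeq on GRCm38.p6 and 5′ to 3′ in the direction of the gene. Capitals mark matches on either strand to CANNTG (the core bound by basic helix-loop-helix factors), TAATTA (a core bound by many homeobox factors), GGATTA (a core bound by bicoid-type factors such as Otx2) and TATAAA. The window chr2:38339031-38339280 (plus strand) holds none of these motifs and the window chr14:48667645-48667894 (minus strand) holds 1 CANNTG, 1 TAATTA and 1 TATAAA.
Lhx2: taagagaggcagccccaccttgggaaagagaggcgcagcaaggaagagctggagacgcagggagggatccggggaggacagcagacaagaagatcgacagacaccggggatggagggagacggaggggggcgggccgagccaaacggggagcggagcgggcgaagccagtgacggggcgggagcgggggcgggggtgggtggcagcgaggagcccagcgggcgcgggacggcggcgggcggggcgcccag
Otx2: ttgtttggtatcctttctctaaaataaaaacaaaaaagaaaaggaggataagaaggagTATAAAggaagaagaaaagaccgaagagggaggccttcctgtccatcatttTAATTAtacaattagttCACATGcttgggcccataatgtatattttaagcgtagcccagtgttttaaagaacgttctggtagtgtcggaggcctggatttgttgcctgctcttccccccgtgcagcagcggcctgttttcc
Over 32851 mouse promoter windows of that length, 66.2% held CANNTG, 4.8% TAATTA, 6.3% GGATTA and 12.4% TATAAA. The matches in the Otx2 window do not overlap each other. The values of the transcripts that start at these sites are given after the levels of the genes.

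Six6, Rax and Lhx2, the eye-field and optic vesicle factors, were high in the E10.5 lens libraries, lower at E12.5, close to 0 at E14.5 and between 0.31 and 5.47 FPKM at E16.5. Six6 (chromosome 12, 72939892 to 72944899, plus strand) stood at 22.9, 43.7 and 42.8 FPKM in E10.5 replicates 1, 2 and 3. The E12.5 libraries stood at 29.2, 13.3 and 8.25 FPKM and the E14.5 libraries at 0.48, 0.28 and 0.17. The E16.5 libraries stood at 3.48, 2.14 and 1.05 FPKM, beside 1.01, 0.88 and 1.20 in whole body. Every E10.5 and E12.5 library was above every whole-body library, the E14.5 libraries were all below whole body, and the E16.5 libraries overlapped it. E12.5 replicate 1 exceeded E10.5 replicate 1, so these stages overlapped. In bulk samples such as these, fewer cells of a type and less RNA per cell cannot be told apart.

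Rax (chromosome 18, 65928277 to 65939787, minus strand) stood at 13.5, 24.5 and 24.6 FPKM at E10.5 and at 11.3, 5.53 and 4.27 at E12.5. The E14.5 libraries were listed at 0.12, 0 and 0 and the E16.5 libraries at 2.00, 0.56 and 0.31, beside 0.22, 0.24 and 0.23 in whole body. The 3 E10.5 libraries were all above the 3 of E12.5, and E16.5 replicate 1 was the highest of the late libraries, as it was for Six6. The antisense gene Raxos1 lies on the other strand of the same locus and shares 1604 exon bases with Rax. Raxos1 stood at 15.8, 27.0 and 24.6 FPKM at E10.5, 13.0, 6.18 and 2.89 at E12.5 and at most 1.58 later. The strand setting of the counting is not given in the sources used here, so reads of Rax and Raxos1 cannot be told apart in the shared bases. Six6 shares 192 exon bases with 4930447C04Rik on the other strand, which stood at 1.91 to 2.49 FPKM at E10.5 and at most 0.91 in the later lens libraries.

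Lhx2 stood at 37.4, 64.0 and 73.1 FPKM at E10.5 and at 29.2, 13.0 and 11.2 at E12.5. Its values were 0.13, 0.65 and 0.15 FPKM in the E14.5 libraries and 5.47, 3.41 and 0.46 in those of E16.5. Unlike Six6 and Rax, Lhx2 was well expressed in whole body, at 38.7, 32.6 and 35.8 FPKM. E10.5 replicate 1 lay within the whole-body range and replicates 2 and 3 above it, and all later lens libraries lay below it.

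Otx2 stood at 29.1, 56.4 and 44.9 FPKM at E10.5, above all whole-body values of 21.4, 21.9 and 19.5. It stood at 11.1, 4.10 and 3.59 FPKM at E12.5, below whole body in every library. The E14.5 libraries were listed at 0, 0.09 and 0 and the E16.5 libraries at 0, 0 and 0.11, so the late libraries were at or near 0 throughout. Exons of Otx2 also overlap those of Otx2os1 on the other strand over 154 bases and those of Gm49154 over 168; neither was analysed here.

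Atoh7 (chromosome 10, 63099651 to 63101279, plus strand) had another course. It was listed at 0 in all 3 E10.5 libraries and stood at 4.20, 5.18 and 2.31 FPKM in those of E12.5. The E14.5 libraries stood at 0.36, 0.09 and 0.35 FPKM and the E16.5 libraries at 0.42, 0.68 and 0.63, with 0.04, 0.04 and 0.15 in whole body. Every E12.5 library was above every other library of the study, and the E16.5 libraries were all above those of E14.5 and of whole body. To be tested, a gene had to reach 1 FPKM in at least 3 libraries, and Atoh7 did so in those of E12.5 only. It thus entered the tests through the group where it was high, and its calls between E12.5 and any other group are not independent of that.

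**Figure D1:**
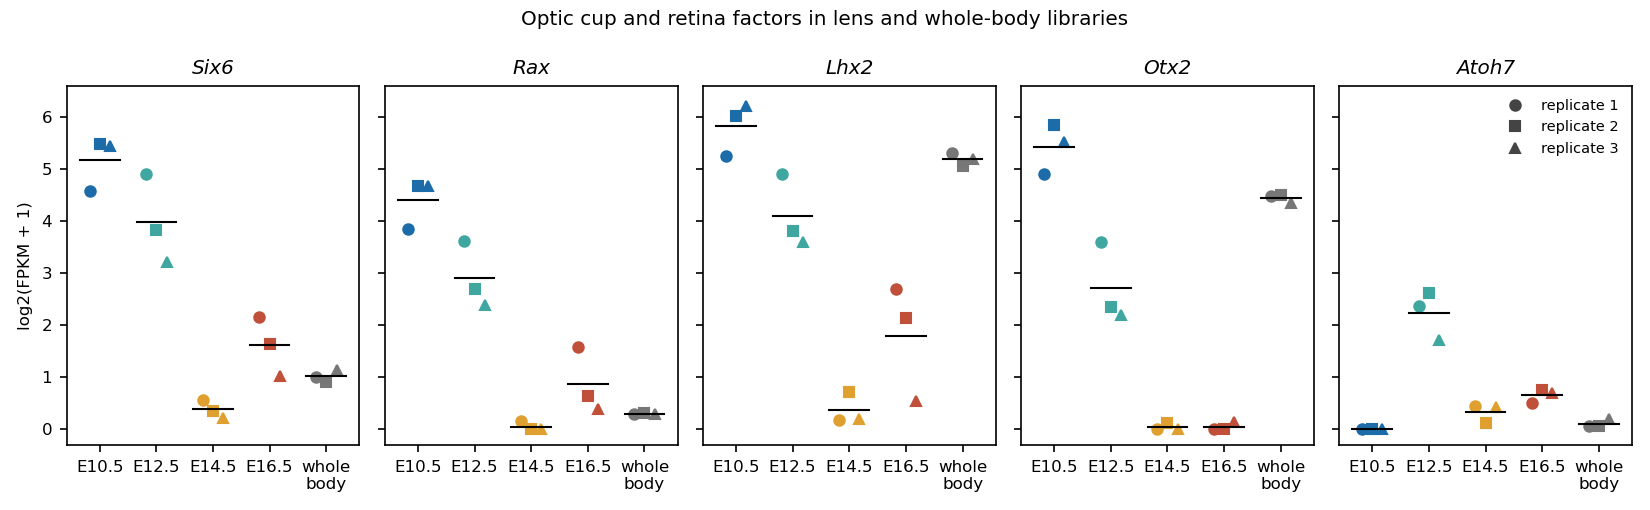
Level of each gene as log2(FPKM + 1) in the 15 libraries, by lens stage and whole body, with marker shapes for replicates 1, 2 and 3 and a bar at the mean of the log2 values of a group. Six6, Rax, Lhx2 and Otx2 are high at E10.5, lower at E12.5 and at or near 0 at E14.5, while Atoh7 is at 0 at E10.5 and highest at E12.5.

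Against whole body, 3 of the 5 genes were called at E10.5, all higher, where 55.7% of all genes were called, 24.6% higher and 31.2% lower. Six6 was higher by 4.15 ± 0.37 (35.4-fold between mean FPKM of 36.5 ± 11.7 and 1.03, SD, n = 3; limma adjusted p = 2.24e-07). Rax was higher by 4.10 ± 0.33 (20.9 FPKM against 0.23; limma adjusted p = 5.96e-08). Otx2 was higher by a smaller amount, 0.97 ± 0.30 (2.08-fold; limma adjusted p = 0.0126), and this call was lost with a pseudocount of 0.1 FPKM (adjusted p = 0.071) and without E10.5 replicate 2 (adjusted p = 0.0644), with adjusted p from 0.000614 to 0.071 over 25 alternatives. Lhx2, a gene that whole embryos also express, differed by 0.64 ± 0.45 (limma adjusted p = 0.248; from 0.0495, with only these groups fitted, to 0.617 over alternatives). Atoh7 was not called (limma adjusted p = 0.658), and no fold can be given for a group listed at 0.

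At E12.5 all 5 genes were called against whole body, 3 higher and 2 lower, where 69.4% of all genes were called, 32.3% higher and 37.1% lower. Six6 was higher by 2.97 ± 0.37, Rax by 2.61 ± 0.33 and Atoh7 by 2.14 ± 0.19 (limma adjusted p = 5.11e-06, 5.12e-06 and 1.01e-07). The Atoh7 call was not independent of the filter, which this gene passed through its E12.5 libraries alone. Otx2 was lower, at -1.74 ± 0.30 (3.34-fold, or 5.45-fold without E12.5 replicate 1; limma adjusted p = 0.000113). Lhx2 was also lower, at -1.08 ± 0.45 (limma adjusted p = 0.0443). This call was lost in 12 of 25 alternatives (adjusted p from 0.00714 to 0.159), among them a pseudocount of 0.1 FPKM and leaving out E12.5 replicate 2 (0.127) or 3 (0.156), E10.5 replicate 2, E14.5 replicate 1 or 3 or any 1 whole-body library.

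At E14.5 the 2 genes that stood above 19 FPKM in whole body were the 2 called, both lower, where 78.3% of all genes were called and 42.6% were lower. Lhx2 was at -4.83 ± 0.45 (limma adjusted p = 1.25e-07), and Otx2 at -4.41 ± 0.30 (limma adjusted p = 3.45e-09). Six6, Rax and Atoh7 were low on both sides. Their differences of -0.64, -0.24 and 0.23 were not called (limma adjusted p = 0.131, 0.506 and 0.27), and with a pseudocount of 0.1 FPKM, which weights low values more, all 5 genes were called.

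At E16.5 Lhx2 (-3.40 ± 0.45) and Otx2 (-4.40 ± 0.30) were again lower than whole body, and Atoh7 was higher by 0.55 ± 0.19 (limma adjusted p = 5.29e-06, 2.97e-09 and 0.0139). These 3 of 5 stand beside 80.2% of all genes called, 43.4% lower and 36.8% higher. The Atoh7 call concerned 0.42 to 0.68 FPKM against 0.04 to 0.15, and it was lost when libraries were scaled to equal totals (adjusted p = 0.135, with 9.97e-05 to 0.135 over 25 alternatives). Six6 differed by 0.60 ± 0.37 and Rax by 0.57 ± 0.33, neither of them called (limma adjusted p = 0.152 and 0.12), though Rax was called without E16.5 replicate 3 (0.82, adjusted p = 0.0468; 0.0026 to 0.534 over alternatives).

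Over the lens stages alone, all 5 genes were called by the moderated F test of limma, where 77.3% of all genes were called. For Atoh7 the F test was not independent of the filter, which it passed through E12.5 alone. The steps between neighbouring stages differed in kind. From E10.5 to E12.5 all 5 genes were called, 4 lower and Atoh7 higher, beside 55.5% of all genes called, 26.0% lower and 29.5% higher. Otx2 fell most, by 2.71 on the log2 scale (SE 0.30, 6.93-fold, or 11.3-fold without E12.5 replicate 1; limma adjusted p = 3.22e-06). Lhx2 changed by -1.72 ± 0.45 (3.27-fold; limma adjusted p = 0.00475) and Rax by -1.50 ± 0.33 (2.97-fold; limma adjusted p = 0.00136). Six6, whose libraries overlapped, changed by -1.19 ± 0.37 (2.16-fold, or 3.39-fold without E12.5 replicate 1; limma adjusted p = 0.0142), and its call was lost when E10.5 replicate 2 (adjusted p = 0.0569), E10.5 replicate 3 (0.0524) or E12.5 replicate 3 (0.082) was left out, and when only these stages were fitted (0.0827), with adjusted p from 0.000621 to 0.0827 over 25 alternatives. Atoh7 rose from libraries listed at 0 (limma adjusted p = 1.62e-07), though it was tested only because of its E12.5 libraries.

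From E12.5 to E14.5 all 5 genes fell, beside 43.7% of all genes called and 22.4% lower. Lhx2 changed by -3.74 ± 0.45 and Six6 by -3.61 ± 0.37 (57.4-fold and 54.5-fold; limma adjusted p = 1.62e-05 and 4.25e-06). These folds rest on means below 1 FPKM at E14.5, and they were 127-fold for Lhx2 without E14.5 replicate 2 and 34.8-fold for Six6 without E12.5 replicate 1. Rax changed by -2.85 ± 0.33 and Otx2 by -2.68 ± 0.30 (limma adjusted p = 1.08e-05 and 8.44e-06). Atoh7 changed by -1.91 ± 0.19, a 14.6-fold drop (limma adjusted p = 2.54e-06). It was tested only because of its E12.5 libraries, so its place among the 5 was not independent of the filter.

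From E14.5 to E16.5, 1 of the 5 genes was called, beside 10.0% of all genes called and 5.97% higher. Six6 was higher by 1.23 ± 0.37 with no overlap between the groups (limma adjusted p = 0.0499), but it was no longer called in 20 of 25 alternatives, with adjusted p from 0.00631 to 0.193. These included leaving out any 1 library of E14.5 or whole body, replicate 1 (0.193) or 2 of E16.5, replicate 2 of E12.5 and replicate 2 or 3 of E10.5. Lhx2 differed by 1.43 ± 0.45 and missed the threshold (limma adjusted p = 0.0608), with E16.5 replicate 3 at 0.46 FPKM, inside the E14.5 range. Without that library the Lhx2 difference was 2.05 (adjusted p = 0.00265), and it was also called without E12.5 replicate 1 (adjusted p = 0.0362), with 0.00265 to 0.24 over 25 alternatives. Rax differed by 0.82 ± 0.33 (limma adjusted p = 0.135), and Otx2 by 0.01 ± 0.30, with all 6 libraries at 0.11 FPKM or less.

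Stages that are not neighbours were compared in the same fit. At E14.5, 4 of the 5 genes were lower than at E10.5, beside 72.4% of all genes called and 36.1% lower, with Six6 at -4.79 ± 0.37 (118-fold; limma adjusted p = 2.62e-08) and Lhx2 at -5.47 ± 0.45 (188-fold, or 415-fold without E14.5 replicate 2). Atoh7 was not called in that comparison (limma adjusted p = 0.12), except without E12.5 replicate 3 (0.0321) and in 3 other alternatives. At E16.5 the same 4 genes were lower than at E10.5 and Atoh7 was higher (limma adjusted p = 0.00533, or 0.057 without E10.5 replicates 1 and 3), beside 73.9% of all genes called, 36.7% lower and 37.2% higher. Six6 was then at -3.56 ± 0.37 (16.4-fold) and Rax at -3.53 ± 0.33 (21.8-fold, or 47.9-fold without E16.5 replicate 1). All 5 genes were lower at E16.5 than at E12.5, beside 52.6% of all genes called and 26.7% lower, with differences from -1.59 ± 0.19 for Atoh7 to -2.67 ± 0.30 for Otx2. Here too Atoh7 was tested only because of its E12.5 libraries.

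Ordered by mean level, Six6 and Rax were highest at E10.5, then E12.5, E16.5, whole body and E14.5, and no neighbouring pair among the last 3 was called. Lhx2 ran E10.5, whole body, E12.5, E16.5 and E14.5, and neither the pair of E10.5 and whole body nor that of E16.5 and E14.5 was called. Otx2 ran E10.5, whole body, E12.5 and then E16.5 and E14.5, a pair that was not called. Atoh7 ran E12.5, E16.5, E14.5, whole body and E10.5, and from E16.5 on no neighbouring pair was called.

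**Figure D2:**
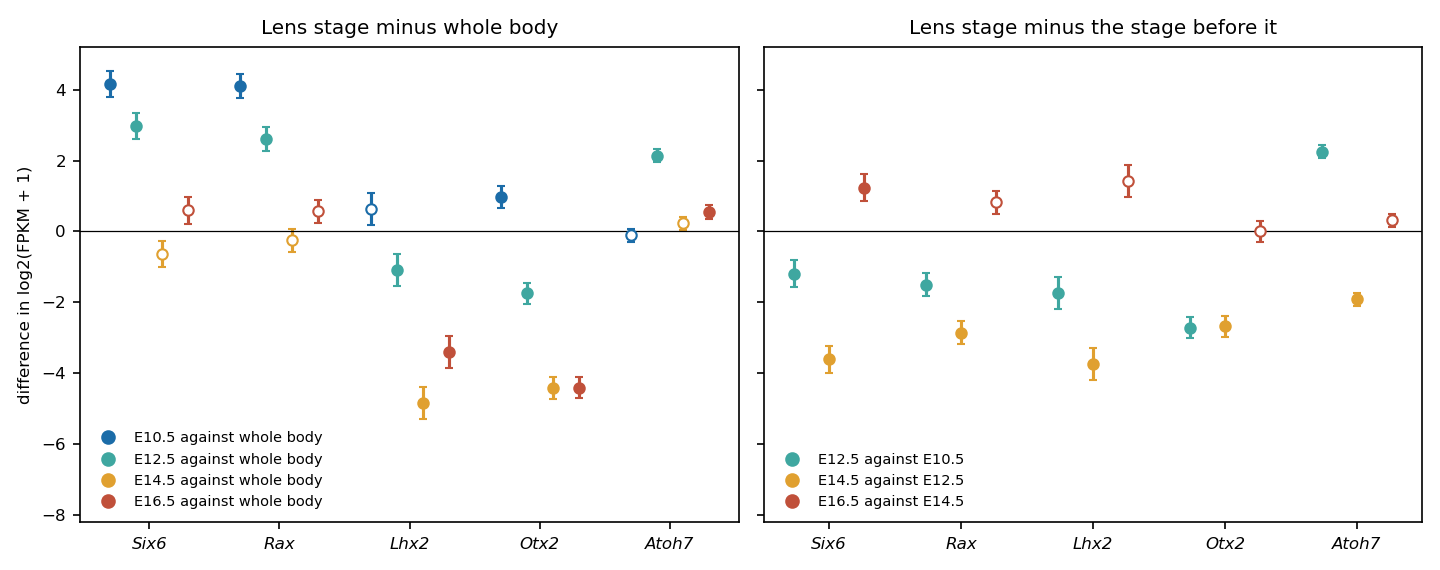
Differences in log2(FPKM + 1), with SE bars, of each lens stage from whole body (left) and from the stage before it (right). Filled points were called at a limma adjusted p under 0.05 and open points were not; Six6 and Rax lie above 0 at E10.5 and E12.5, Lhx2 and Otx2 far below it at E14.5 and E16.5, and the Atoh7 point for E12.5 against E10.5 depends on the added 1 FPKM, since E10.5 is listed at 0.

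The early genes were also set against each other within libraries, and no ratio between stages passed a test at 0.05, which 3 libraries against 3 cannot reach. Each level was divided by the Six6 level of the same library, which cancels any factor common to both. Otx2 stood at 1.27, 1.29 and 1.05 times Six6 at E10.5 and at 0.382, 0.308 and 0.435 times at E12.5. These ratios did not overlap, and the mean log2 ratio changed by -1.69. Lhx2 stood at 1.63, 1.46 and 1.71 times Six6 at E10.5 and at 1, 0.977 and 1.36 times at E12.5, a change of -0.54. Rax stood at 0.589, 0.559 and 0.574 times Six6 at E10.5 and at 0.387, 0.415 and 0.518 times at E12.5, a change of -0.40. Each of the 3 two-sided exact permutation tests gave p = 0.1, the smallest that 3 libraries against 3 allow, and 0.1 after Benjamini-Hochberg adjustment over the 3 ratios.

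**Figure D3:**
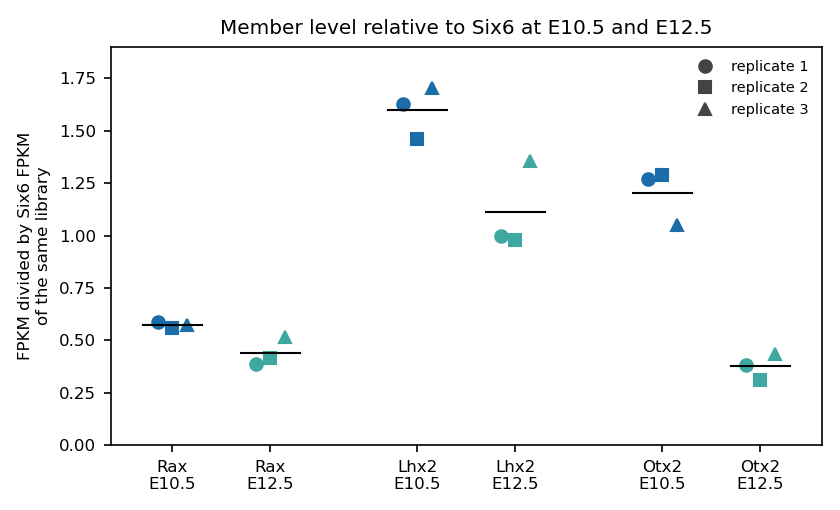
FPKM of Rax, Lhx2 and Otx2 divided by the Six6 FPKM of the same library, at E10.5 and E12.5, with marker shapes for replicates and a bar at the mean of 3 libraries. The E12.5 ratios lie below all E10.5 ratios for each gene, and the gap is widest for Otx2, from 1.05 or more to 0.435 or less.

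Within E10.5 and within E12.5, Six6, Rax, Lhx2 and Otx2 shared their lowest and their highest library respectively. At E10.5 replicate 1 was the lowest library for Six6, Rax, Lhx2 and Otx2. Over all genes that averaged 1 FPKM or more, it was the highest for 22.7%, against 41.0% and 36.3% for replicates 2 and 3. The share of all genes that were lowest there was not counted. At E12.5 replicate 1 was the highest library for 4 of the 5 genes, where it was the highest for 38.2% of all genes that averaged 1 FPKM or more, and Atoh7 was highest in replicate 2. At E16.5 replicate 1 was the highest for Six6 and Lhx2, the 2 genes with such a mean, against 26.1% of all genes. Rax was also highest there, whereas Otx2 was listed at 0 there and above 0 only in replicate 3. At E14.5 the genes differed in order, with replicate 1 the highest for Six6 and Rax and replicate 2 for Lhx2 and Otx2, all at 0.65 FPKM or less. After removing stage means, Pearson's r over the 12 lens libraries was 0.957 between Six6 and Rax, 0.861 between Six6 and Lhx2, 0.848 between Rax and Lhx2, 0.777 between Six6 and Otx2, 0.705 between Rax and Otx2 and 0.512 between Lhx2 and Otx2, a description of libraries that share stages and depth.

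Markers of the optic vesicle, pigment epithelium and periocular mesenchyme followed the same libraries at E12.5 and in part at the other stages. Those of the surface ectoderm and cornea, given below, did not at E12.5. In E12.5 replicate 1, 16 of 23 optic vesicle genes, 8 of 9 pigment epithelium and pigment cell genes and 9 of 10 periocular mesenchyme genes that averaged 1 FPKM or more were at their highest for that stage, and 0 of 11 lens-defining genes were. Pmel, a pigment granule protein, stood at 48.6 FPKM there against 9.24 and 10.3 in the other E12.5 libraries. In E10.5 replicate 1, where the early genes were lowest, Pmel was also lowest, at 10.9 FPKM against 36.4 and 35.6, and 0 of 9 pigment genes and 2 of 23 optic vesicle genes were at their highest. In that same library 5 of 10 periocular genes, 8 of 15 genes of retinal neurogenesis and 7 of 10 lens-defining genes were at their highest, against 22.7% of all genes. The summed level of the 10 measured pigment genes ran from 134 to 267 FPKM at E10.5 and from 77.2 to 222 at E12.5. It ran from 61.9 to 69.4 FPKM in the E14.5 libraries, from 63.8 to 91.1 in the E16.5 libraries and from 30.7 to 37.3 in whole body. Single genes weighed heavily in these sums. At E10.5 Ttr stood at 47.7, 2.41 and 83.0 FPKM. At E14.5 Trpm1 stood at 34.3 to 38.6 FPKM and Mitf at 20.0 to 28.6, with Pmel at 0.78 to 1.11 and every other gene of the list at 5.40 or less. No gene of that list was listed at 0 in all 3 libraries of a stage before E16.5, when Sox10 was. The 10 periocular genes summed to 356 to 933 FPKM at E12.5, to 180 to 209 in the E14.5 libraries and to 173 to 234 in the E16.5 libraries, and none of them was listed at 0 in all 3 libraries of a group. Pdgfra, a gene of this list, alone stood at 171 to 185 FPKM in the E14.5 libraries and at 167 to 218 in those of E16.5. From E10.5 to E14.5, 9 of the 10 periocular genes were lower, beside 36.1% of all genes, and Pdgfra was higher. In E16.5 replicate 1, 10 of 15 optic vesicle genes and 4 of 6 pigment genes that averaged 1 FPKM or more were at their highest for that stage, but 1 of 4 periocular genes was, with the other 3 highest in replicate 3.

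Markers of the surface ectoderm and cornea fell with age as well. Their 9 genes summed to 347 to 448 FPKM at E10.5, 19.4 to 65.4 at E12.5, 1.7 to 3.7 in the E14.5 libraries and 1.7 to 3.4 in those of E16.5, with 7 of 9 lower at E14.5 than at E10.5, beside 36.1% of all genes, and Krt14 listed at 0 in all 3 E14.5 libraries. At E12.5, 0 of the 4 genes of this list that averaged 1 FPKM or more were highest in replicate 1, against 38.2% of all genes. All 4 were highest in replicate 2, against 24.8% of all genes. At E10.5, 5 of 6 such genes were highest in replicate 3, against 36.3% of all genes. The part of all these tissues in the levels of Six6, Rax, Lhx2 and Otx2 was not tested.

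Other genes of the optic cup were counted from lists of known genes. Of 23 optic vesicle and eye field genes, 9 were higher than whole body at E10.5, 8 lower and 6 not called, with a median difference of 0.29 against -0.04 over all genes. Over all genes, 24.6% were higher and 31.2% lower. Aldh1a3, a retinaldehyde dehydrogenase of the ventral eye, was higher by 6.34 ± 0.46, and Aldh1a1, a retinaldehyde dehydrogenase of the dorsal eye and the lens, by 7.91 ± 0.18. From E10.5 to E14.5, 21 of the 23 were lower, beside 36.1% of all genes, Aldh1a1 was higher and Six3 was not called. The median difference was -2.46 against -0.02 over all genes. Tbx5 and Nr2e1, which act in the dorsal eye and in retinal progenitors, were listed at 0 in all E14.5 and E16.5 libraries, as was Foxd1 at E16.5. The list of 18 retinal progenitor genes shares Hes1, Sox2 and Nr2e1 with the optic vesicle list. Of these 18, 5 were higher than whole body at E10.5 and 10 lower (median -0.44), beside 24.6% and 31.2% of all genes. At E14.5, 14 were lower than at E10.5 (median -1.38), beside 36.1% of all genes, with Hes5 and Sfrp1 higher. Pax6 and Six3, eye-field factors that the lens itself uses, stood at 303 to 455 and 85.8 to 139 FPKM in the lens libraries.

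**Figure D4:**
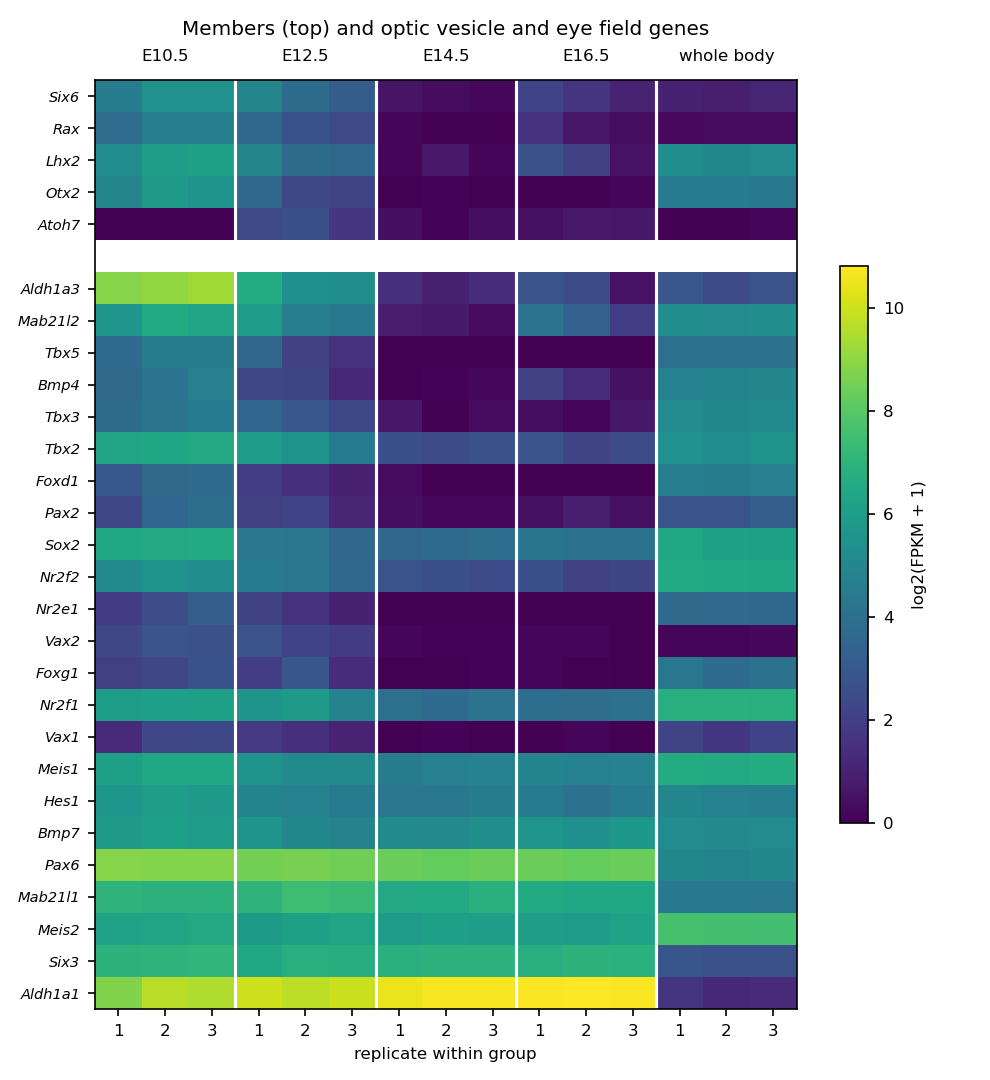
Heat map of log2(FPKM + 1) in every library for Six6, Rax, Lhx2, Otx2 and Atoh7 (top block) and the 23 optic vesicle and eye field genes (bottom block), ordered by their fall from E10.5 to E14.5. Aldh1a3, Mab21l2 and Tbx5 at the top of that block share the early high and E14.5 low of Six6. Towards the bottom, Pax6, Mab21l1, Meis2, Six3 and Aldh1a1 stay high in all 12 lens libraries.

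Genes of the retinal neurons that Atoh7 helps to form were counted in the same way. Of 28 tested genes of retinal neurogenesis and ganglion cells, 5 were higher at E12.5 than at E10.5, 7 lower and 16 not called, with a median difference of -0.06 against 0.01 over all genes. Over all genes, 29.5% were higher and 26.0% lower. Against whole body, whose nervous system expresses many of them, 24 of the 28 were lower at E12.5, beside 37.1% of all genes, and none was higher. Isl1, a LIM-homeobox factor of early ganglion cells, stood at 0.39, 10.9 and 1.88 FPKM at E12.5, highest in replicate 2, the library in which Atoh7 and Sox10 were also highest. Most of its list went another way. Of 15 genes of the list that averaged 1 FPKM or more at E12.5, 9 were highest in replicate 1, 5 in replicate 2 and 1 in replicate 3. The shares of all genes were 38.2%, 24.8% and 37.0%. Crx, the Otx2 relative of photoreceptors, was at 0.69, 3.12 and 3.10 FPKM at E10.5 and at 1.01, 0 and 0 at E12.5, and was listed at 0 in all later lens libraries and in whole body.

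Of 10 tested pigment epithelium and pigment cell genes, a tissue in which Otx2 acts, 7 were higher than whole body at E10.5, 1 lower and 2 not called, with a median difference of 1.30 against -0.04 over all genes, of which 24.6% were higher. Trpm1, a cation channel that lies in the pigment cell programme, was higher by 5.70 ± 0.33 and Pmel by 3.61 ± 0.53. From E10.5 to E14.5, 7 of the 10 were lower, beside 36.1% of all genes, Oca2 was higher, and Mitf and Sox10 were not called. Mitf, the pigment cell master factor, stood at 20.0 to 28.6 FPKM at E14.5, when Otx2 was listed at 0.09 or less. Of 25 forebrain, midbrain and neural tube genes, where Otx2, Lhx2 and Rax also act, 22 were lower than whole body at E10.5, where 31.2% of all genes were, with a median difference of -2.13, and the 1 higher was Otx1, by 2.34. Otx1, the closest relative of Otx2, stood at 51.8, 72.1 and 62.3 FPKM at E10.5 and 40.8, 16.1 and 12.9 at E12.5. The E14.5 libraries stood at 0.84, 0.80 and 0.52 and the E16.5 libraries at 6.73, 2.93 and 1.37 FPKM. At E16.5 Otx1 was thus above 1 FPKM in all 3 libraries, while Otx2 was at 0.11 FPKM or less.

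Among 30 relatives and partners of these factors, 4 were higher than whole body at E10.5 and 19 lower, where 24.6% of all genes were higher and 31.2% lower, with a median difference of -1.34. The higher ones were Crx, Otx1, Six3 and Six5. Lhx9, the closest relative of Lhx2, was listed at 0 in all E10.5 and E12.5 libraries and was lower than whole body at E10.5, at -4.52 ± 0.12 (limma adjusted p = 3.65e-13). Six3, the closest relative of Six6, was higher by 4.29 ± 0.09 at E10.5.

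The genes whose levels over the 12 lens libraries were most like each factor were found by Pearson's r of log2(FPKM + 1) among 13744 genes, as a description of libraries that share stages and depth. For Six6 they were St8sia1, A730017C20Rik, Otx1 and Cdh11 (r = 0.994 each) and Foxi3 (0.993). For Rax they were Raxos1 (0.995), Otx1 (0.994), Adamts9 and Ackr3 (0.993 each) and Six6 (0.992). For Lhx2 they were A730017C20Rik (0.996), Otx1 (0.992), Tbx20 and St8sia1 (0.989 each) and Six6 (0.988). Otx1, Six6, A730017C20Rik and St8sia1 each stood in the nearest sets of more than 1 factor. For Otx2 they were Dusp5 (0.998) and Sept3, Dusp9, Usp3 and Cyp1b1 (0.995 each), none of them shared with the other 4. For Atoh7 they were Aldh1a2 (0.956), Cdkn2b (0.953), Heyl (0.949), Arhgap20 (0.944) and Tmcc2 (0.943). Aldh1a2, a retinaldehyde dehydrogenase, averaged 31.0 FPKM at E12.5 and 0.67, 2.03 and 1.85 at the other lens stages. Between the factors themselves r was 0.992 for Six6 and Rax, 0.988 for Six6 and Lhx2 and 0.941 for Six6 and Otx2, and between Atoh7 and the other 4 it ran from -0.05 to 0.18. Over all 15 libraries r stayed at 0.992 for Six6 and Rax and dropped to 0.683 for Six6 and Lhx2, with whole body above 30 FPKM for Lhx2 and near 1 FPKM for Six6.

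Transcript values are the authors' estimated splits of one gene's reads and are described without a test. Otx2 had 7 transcripts in the table. The transcript of 2667 bases stood at 4.30, 5.79 and 4.32 FPKM in whole body, 20.1% to 26.5% of Otx2, and was listed at 0 in all 12 lens libraries, including those of E10.5 in which Otx2 as a whole was higher than in whole body. A transcript of 1033 bases, which has the same start-site label and reference transcript in the table and so follows the Otx2 window printed above, stood at 1.38, 5.32 and 7.08 FPKM at E10.5 and at 0.13, 0.75 and 1.12 in whole body. This start site was thus above 0 in lens and whole body, and the listed structures that follow it differed. The main Otx2 transcript of the lens had 2284 bases and stood at 9.80, 17.3 and 17.8 FPKM at E10.5.

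Lhx2 had 4 transcripts. The one of 1696 bases begins at the upstream start that follows the Lhx2 window printed above. It stood at 1.13, 1.71 and 1.63 FPKM at E10.5 and at 1.68, 0.95 and 1.11 in whole body, 2.2% to 3.0% and 2.9% to 4.3% of Lhx2, and was listed at 0 in every lens library from E12.5 on. In E12.5 replicate 1, where Lhx2 as a whole stood at 29.2 FPKM, it was also at 0. The nearest reference transcript of the other 3 begins at 38350759, and the main one, of 1788 bases, stood at 22.3, 43.6 and 41.7 FPKM at E10.5 and at 16.46, 7.34 and 6.20 at E12.5. Six6 and Atoh7 had 1 transcript each. The 2 transcripts of Rax, of 1669 and 1598 bases, were split unevenly between libraries of 1 stage, for example 24.5 and 0 FPKM in E10.5 replicate 2 and 15.5 and 9.12 in replicate 3, so only their sum is used here.

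**Figure D5:**
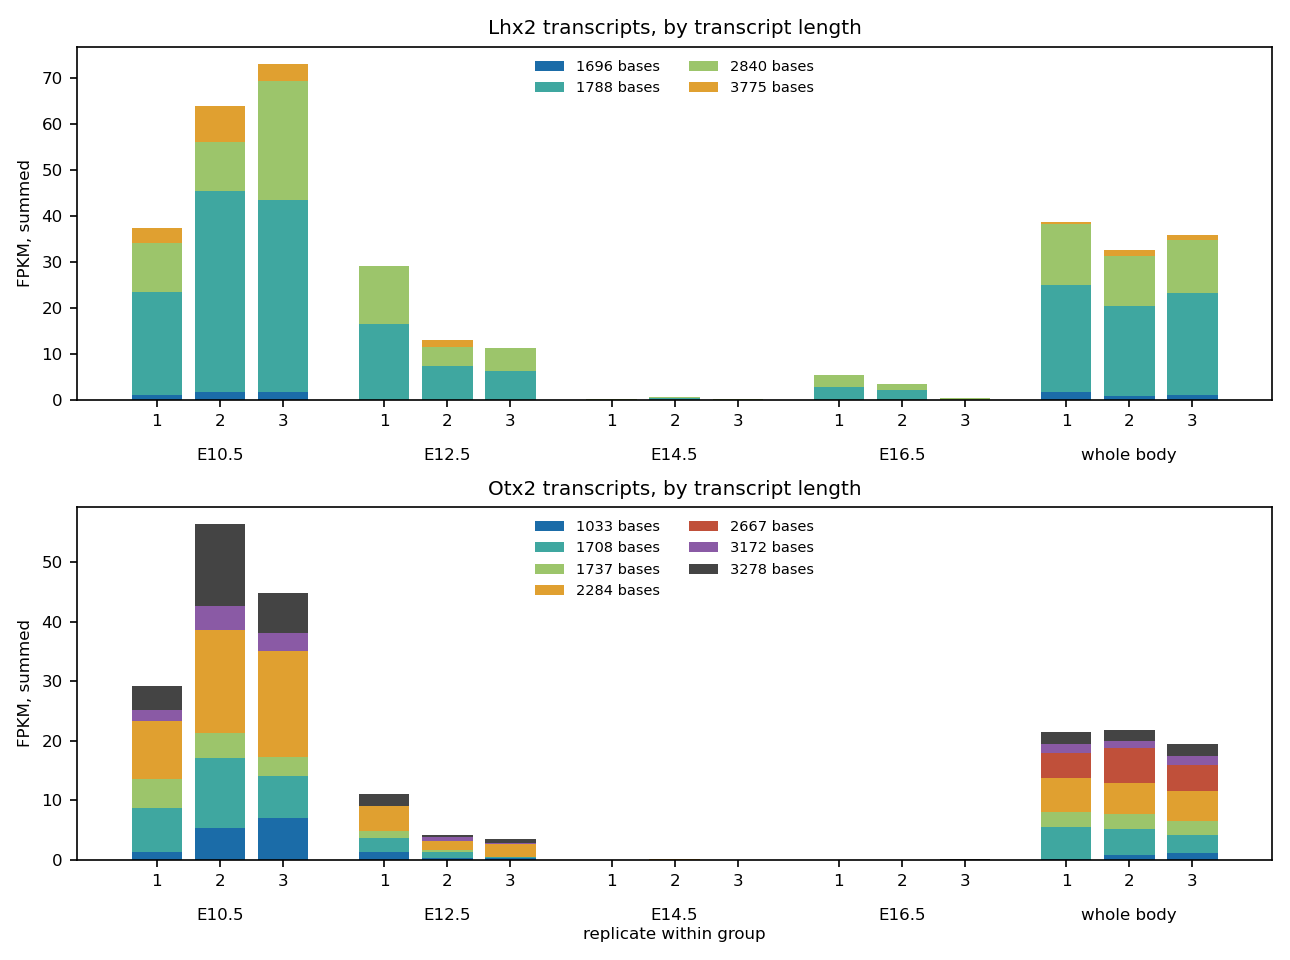
Estimated FPKM of each transcript of Lhx2 (top) and Otx2 (bottom), stacked by transcript length, in the 15 libraries. The Otx2 transcript of 2667 bases appears in the 3 whole-body libraries and in no lens library, and the Lhx2 transcript of 1696 bases appears at E10.5 and in whole body but from E12.5 on in no lens library.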

How the data were processed

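RNA-seq of 12 lens and 3 whole-body libraries was used. The authors deposited FPKM per assembled transcript, per the submitters' processing notes, which name mm10 as the build and Cuffnorm, Cufflinks, TopHat2 2.0.9 and Trimmomatic as tools; the strand setting, the normalization setting and the read depth are not given in the sources used here. The table held 48306 transcripts. FPKM were summed per gene symbol without 172 transcripts of class x (exon overlap on the other strand), giving 14615 genes. Genes under 1 FPKM in all but 2 or fewer libraries (80) were removed, and so were Cryaa, Cryba1 and Nufip2, which were listed at 0 beside a replicate of at least 50 FPKM, leaving 14532.

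Values of log2(FPKM + 1) were tested in R 4.3.3 with limma 3.58.1, in 1 fit of all 15 libraries with 5 group means, eBayes with a trend, 10 residual degrees of freedom and Benjamini-Hochberg adjustment within each of 10 comparisons, called at an adjusted p under 0.05. The fit was tested on simulated data. The 26 alternatives changed the pseudocount (0.1), the filter, the scaling, the model, the transcripts or the libraries used. Labels give replicate numbers but do not say that they mark a shared litter or day, so no block was used. Gene positions were read from GENCODE vM21, of that same build.

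The 5 genes and the gene lists were chosen with earlier results of these data known. Beside the 5 genes, the text names the 5 genes most correlated with each over the lens libraries, at most 4 genes of a list by size of change, a few eye and lens genes and relatives, and genes that stood out in 1 library, chosen after their values were seen (Col1a1, Sox10, Isl1, Pmel and Crx). Some genes of the lists are not reported here and were left out of their counts.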

Additional observations from a re-analysis of the deposited data

Results flagged for a closer look

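Otx2 was the 1 gene of the 5 that was called in opposite directions against whole body at different stages and whose stage difference was itself called. It was higher than whole body at E10.5 (0.97 ± 0.30) and lower at E12.5 (-1.74 ± 0.30), E14.5 (-4.41 ± 0.30) and E16.5 (-4.40 ± 0.30). The difference between these effects, which equals the difference between the lens stages because the whole-body libraries are the same, was -2.71 for E12.5, -5.38 for E14.5 and -5.38 for E16.5 (limma adjusted p = 3.22e-06, 7.6e-10 and 5.34e-10). All 3 libraries of each later stage lay below the 3 of E10.5. The direction at E10.5 did not change in any alternative, but the call was lost in 2 of 25. The groups held 3 libraries each, so no single library was judged an outlier, though each was left out in turn.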

How the results depend on the processing

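Of 1250 values of the 5 genes under alternatives, 1181 kept their direction and their side of the threshold, 40 lost the call, 19 gained one and 10 changed sign, none of these 10 called as reported. The sign changes were Atoh7 at E10.5 (0.001), Six6 (0.48) and Rax (0.18) at E14.5 against whole body and Otx2 at E16.5 against E14.5 (-0.004) with quantile normalization; Six6 at E16.5 against whole body with equal totals (-0.026); Rax at E14.5 against whole body (0) and Otx2 at E16.5 against E14.5 (-0.041) with reference transcripts only; and Otx2 at E16.5 against E14.5 without E14.5 replicate 1 (-0.012), E14.5 replicate 3 (-0.012) or E16.5 replicate 3 (-0.041), with a range of -0.041 to 0.05 over the libraries left out. Of the 5 genes, 5 differed by call from whole body at E14.5 with a pseudocount of 0.1, and 5 were called at E16.5 against whole body with quantile normalization. At E16.5 against E14.5, 3 were called with that pseudocount, 0 with no filter, either form of equal totals, quantile normalization, only the compared groups, eBayes without trend, reference transcripts only or without E10.5 replicates 1 and 3 (chosen after seeing the data), and 0 to 2 when each library was left out in turn.

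Counts over all genes at E16.5 against E14.5, 1454 as reported, were 2820 with equal totals, 521 with only the compared groups, 825 with reference transcripts only and 811 to 1728 with each library left out. Equal totals gave 9978 at E14.5 against E12.5, where 6346 were reported. A 2-fold minimum left 2921, 4170, 6074 and 6492 against whole body in order of stage, 2307, 4737 and 5143 for the later stages against E10.5, 1725 and 2265 for E14.5 and E16.5 against E12.5, and 275 for E16.5 against E14.5. Equal totals moved the median of all genes by up to -0.97, at E16.5 against whole body. The cause of these changes was not tested.

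Whether replicate numbers pair the libraries is not stated by the labels. Deviations from group means were correlated over 30 pairs of libraries with the same number, and r ran from -0.095 to 0.237, with 4 over 0.1. These were replicate 1 between E12.5 and E14.5 (0.237), E12.5 and E16.5 (0.161) and E14.5 and E16.5 (0.106), and replicate 2 between E14.5 and E16.5 (0.197). With a replicate block, 0 of the 5 genes were called at E16.5 against E14.5, where Six6 had a limma adjusted p of 0.0536.

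The depth is unknown, so values below 1 FPKM, which include all 5 genes at E14.5 and Atoh7 and Otx2 at E16.5, carry no stated precision.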
